A study of Homo sapiens with 15 samples.

Results

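PHC1 and RNA polymerase II (RNAPII) PAR-CLIP libraries made with the same nucleoside, 4-thiouridine (4SU), were compared cluster by cluster and gene by gene. They are 3 of the 15 libraries of the study, 2 of PHC1 and 1 of RNAPII, and hold 2062179 of its 2107438 PAR-CLIP clusters. A cluster is a stretch of 1 strand of the genome on which crosslinked reads pile up. The RNAPII library made with 6-thioguanosine was left out, because another nucleoside crosslinks at other bases. Gene regions were the 14432 intervals listed in the authors' promoter table, and a cluster belonged to the region that held its midpoint.

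The cells were HEK293T T-REx, an established line from human embryonic kidney that was built to carry a transgene. The PHC1 cells carried a PHC1 transgene and were kept under hygromycin, and bound RNA was recovered on streptavidin beads (Dynabeads MyOne T1). The RNAPII cells carried no transgene and grew without hygromycin, and their label names an antibody (ab817) against the C-terminal domain of the polymerase. Both took up 100 uM 4SU overnight, and the same number of cells was crosslinked at 365 nm with 0.15 J/cm2. The labels give 1 protocol, with streptavidin beads, for both, so they do not settle which reagent recovered the RNA bound to RNAPII. The submitters' processing notes name R 3.2.2 for the PHC1 libraries and R 3.1.0 for the RNAPII library. The protein pulled down, the cell line and its medium, the reagent and the software version therefore cannot be told apart in any difference given here. No label states whether the 2 PHC1 libraries came from separate cultures, how the transgene was induced or whether the line was 1 clone.

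PHC1 is a subunit of Polycomb repressive complex 1 (PRC1), which sits at silenced developmental genes, adds ubiquitin to histone H2A and compacts chromatin. It holds a zinc finger of the FCS type, which can bind nucleic acid, and a SAM domain through which Polyhomeotic proteins form chains. RNAPII makes messenger RNA precursors. It slows shortly after the start, where short RNAs also arise on the opposite strand of many promoters, and again past the cleavage site at the end of the gene, so RNA bound to it follows transcription. In PAR-CLIP, 4SU is built into new RNA by the cell and is crosslinked by light to proteins that touch it.

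Among markers of HEK293 cells, NEFL, INA and EYA1 had between 42.4 and 142 CPM (counts per 1000000) in the 2 nuclear RNA libraries, and PAX2 and LHX1 had between 4.09 and 8.36 CPM. NEFM was near 0, at 0.381 and 0.121 CPM. Of 8 markers of liver, blood, keratinocytes and fibroblasts, 7 stayed at or below 0.383 CPM and COL1A1 had 1.53 and 1.55 CPM. Those RNA libraries came from cells with no transgene, as the RNAPII library did.

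The 2 proteins parted widely at gene starts, so 4 promoters are shown. AARS1 (alanyl-tRNA synthetase) and ATP6V1E1 (a subunit of the vacuolar proton pump) were among 3 regions tied, with GATAD2A, for the widest excess of PHC1 clusters over RNAPII in the first kb. LSS (lanosterol synthase) and GMEB2 (a DNA-binding factor at glucocorticoid-responsive genes) were among 4 regions tied, with USP53 and LOC100506639, for the most RNAPII clusters near the start with none of PHC1. They were chosen after their values were seen, among 3054 regions of 20 kb or more whose length lay within 100 bases of RefSeq's. Each sequence is the RefSeq promoter of GRCh38.p14, 250 bases before to 50 bases after the gene's start, 5′ to 3′ on the gene's strand. Capitals mark CCAAT or its reverse complement ATTGG, the letters of the CCAAT box of many promoters. The other motif searched, TATAAA on both strands, was in none of the 4.
AARS1, chr16:70289457-70289756, minus strand: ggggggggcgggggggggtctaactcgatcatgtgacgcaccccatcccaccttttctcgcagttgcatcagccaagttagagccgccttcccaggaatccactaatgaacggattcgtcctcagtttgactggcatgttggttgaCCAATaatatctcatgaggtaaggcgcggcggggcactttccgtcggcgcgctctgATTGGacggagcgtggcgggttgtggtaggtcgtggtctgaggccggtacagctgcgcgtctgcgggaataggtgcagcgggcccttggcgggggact
ATP6V1E1, chr22:17628773-17629072, minus strand: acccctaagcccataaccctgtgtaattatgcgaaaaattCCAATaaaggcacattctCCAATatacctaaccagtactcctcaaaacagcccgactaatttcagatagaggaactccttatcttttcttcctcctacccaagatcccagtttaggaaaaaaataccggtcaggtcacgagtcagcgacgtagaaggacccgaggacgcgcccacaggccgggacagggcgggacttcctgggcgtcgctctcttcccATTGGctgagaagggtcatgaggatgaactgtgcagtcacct
LSS, chr21:46228725-46229024, minus strand: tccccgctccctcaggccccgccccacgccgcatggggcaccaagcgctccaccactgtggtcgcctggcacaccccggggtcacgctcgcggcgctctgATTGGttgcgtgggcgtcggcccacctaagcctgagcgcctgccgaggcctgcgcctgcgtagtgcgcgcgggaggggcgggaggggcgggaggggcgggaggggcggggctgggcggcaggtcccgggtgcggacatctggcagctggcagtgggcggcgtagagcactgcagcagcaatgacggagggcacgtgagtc
GMEB2, chr20:63627052-63627351, minus strand: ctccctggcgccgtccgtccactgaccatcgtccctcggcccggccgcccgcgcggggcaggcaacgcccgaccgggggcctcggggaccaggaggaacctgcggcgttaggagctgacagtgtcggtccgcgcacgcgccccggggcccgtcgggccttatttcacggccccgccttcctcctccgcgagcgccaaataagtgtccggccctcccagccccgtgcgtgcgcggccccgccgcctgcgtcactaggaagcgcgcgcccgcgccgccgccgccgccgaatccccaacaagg

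The G and C content was 61.0% for AARS1 and 50.3% for ATP6V1E1, against 74.7% for LSS and 76.0% for GMEB2. The median over the 10969 regions with a RefSeq promoter was 63.0%. CCAAT on either strand was in 36.0% of those promoters and TATAAA in 8.89%. It occurred 2 times in AARS1, 3 times in ATP6V1E1 and once in LSS, and was absent from this window of GMEB2. These are descriptions of 4 chosen windows. The clusters lie on hg19, no genome of that build was used, and the RefSeq start may differ from the start of the authors' region.

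In AARS1, the first kb on the gene's strand held 6 clusters in PHC1 replicate 1 and 5 in replicate 2, against 2 in RNAPII. ATP6V1E1 held 4 and 4 in PHC1 against 1 in RNAPII. In LSS both PHC1 libraries had 0 clusters in the first kb and 0 on the opposite strand of the kb upstream, against 4 and 5 in RNAPII. GMEB2 had the same numbers, 0 in both windows of both PHC1 libraries, against 4 and 5 in RNAPII. The 2 directions were far from equally common. Among the 10969 regions with an annotated strand, 5793 had a cluster in the first kb of the gene's strand in at least 1 library. Both PHC1 libraries had fewer clusters there than RNAPII in 4449 regions (76.8%) and more in 192 (3.31%). A lone RNAPII cluster was enough for a region to count as fewer, while more needed a cluster in both PHC1 libraries. RNAPII had a cluster there in 5541 of these regions, and PHC1 in 3149 and 2568. The split of regions thus leans to RNAPII in part by construction. Summed over regions, the first kb held 7097 and 5327 PHC1 clusters against 16644 of RNAPII. These were 2.48% and 1.85% of PHC1 sense clusters, against 5.64% of RNAPII sense clusters. Within the first 100 bases the shares were 0.270% and 0.169% in PHC1, against 1.28% in RNAPII. PHC1 replicate 1 stood above replicate 2 in each of these measures, and both stood well below RNAPII.

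The strand opposite to the gene, upstream of its start, carried the same contrast. In the kb upstream, PHC1 had 1050 and 845 antisense clusters, against 3939 in RNAPII. Of 2573 regions with such a cluster, both PHC1 libraries had fewer than RNAPII in 2035 (79.1%) and more in 129 (5.01%). This split leans to RNAPII by the same construction as that of the first kb. From 1 to 5 kb upstream the counts reversed their order, at 4227 and 4243 in PHC1 against 3472 in RNAPII. In the last 500 bases before the start of regions of 20 kb or more, PHC1 had 58.0 and 46.4 antisense clusters per kb per 100000 clusters, against 550.4 in RNAPII. With 2 libraries against 1, an exact permutation test has 3 arrangements and cannot give a p below 0.333, so counts of regions whose libraries do not overlap are given in place of a test.

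**Figure D1:**
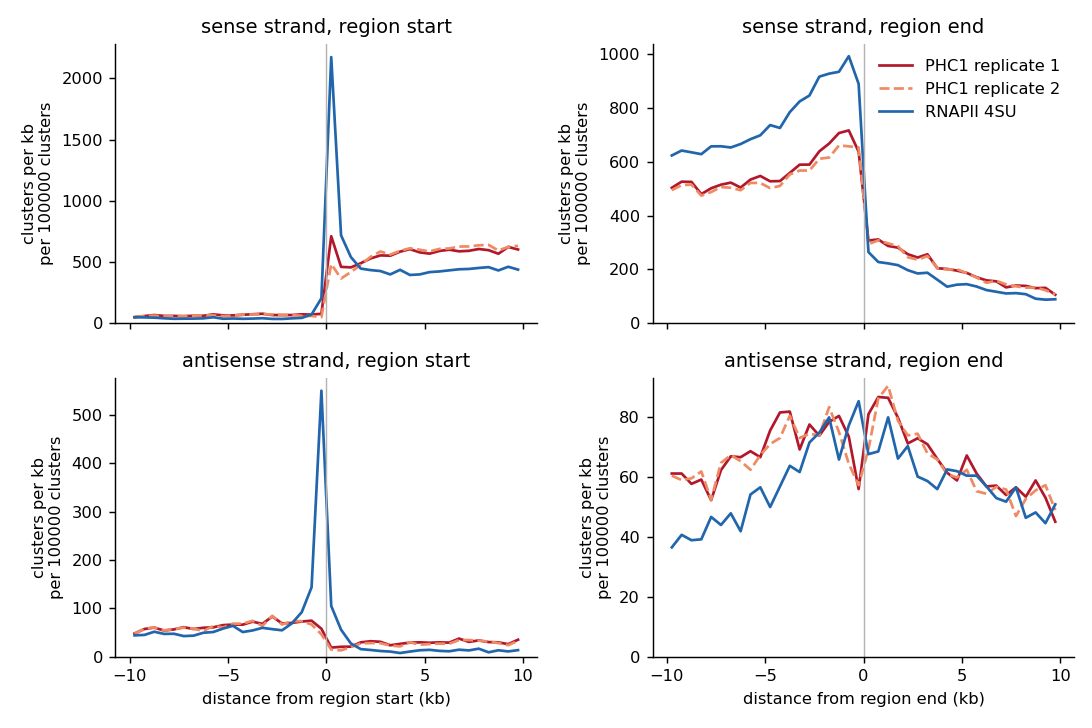
Clusters per kb per 100000 clusters of the library (vertical axes, each from 0) in bins of 500 bases around the start (left) and the end (right) of regions of 20 kb or more, on the sense strand (top) and the antisense strand (bottom), for PHC1 replicates 1 and 2 and RNAPII 4SU. Distances below 0 lie upstream of the start or inside the region before its end, and clusters outside a region count towards the nearest one. RNAPII peaks just inside the start on the sense strand and just outside it on the antisense strand, and both PHC1 lines are lower there and higher from 2 kb into the gene.

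Past the first kb the order turned. In regions of 100 kb or more, PHC1 had 538 and 367 sense clusters per kb per 1000 regions in the first kb, against 1316 for RNAPII. From 1 to 5 kb it had 444 and 443, against 301 for RNAPII. From 5 to 20 kb it had 492 and 523, against 269.9 for RNAPII. From 20 to 50 kb it had 426 and 441, against 295 for RNAPII. PHC1 clusters were therefore fewer in the first kb and denser in each later step up to 50 kb, with the widest gap from 5 to 20 kb. At the other end of these long regions PHC1 was lower throughout. The last kb held 319.5 and 316 clusters per kb per 1000 regions in PHC1, against 612 in RNAPII. The stretch from 1 to 5 kb before the end held 360.1 and 332 in PHC1, against 586 in RNAPII, and the stretch from 20 to 50 kb before the end held 283 and 275, against 379.

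Just beyond the gene's end PHC1 was the denser of the 2 again. On the gene's strand, the first kb downstream held 3893 and 3745 PHC1 clusters, against 2983 of RNAPII. From 1 to 5 kb downstream there were 11567 and 11687 in PHC1, against 8193 in RNAPII, and from 5 to 10 kb 8645 and 8685, against 6230. Of 4640 regions with a sense cluster within 5 kb downstream, both PHC1 libraries had more than RNAPII in 1843 (39.7%) and fewer in 1297 (28.0%). In the last kb of the gene itself the direction was the other way, with both PHC1 libraries below RNAPII in 2422 of 5093 regions (47.6%) and above it in 1008 (19.8%). As at the start, a lone RNAPII cluster was enough to put PHC1 below, while above needed a cluster in both PHC1 libraries. RNA past the cleavage site is what RNAPII makes until it terminates.

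Across whole regions, PHC1 clusters lay nearer the 5′ end. Sense clusters had a mean relative position of 0.480 and 0.475 in PHC1, against 0.533 in RNAPII, where 0 is the 5′ end and 1 the 3′ end. The 5′ side of the midpoint held 53.3% and 54.0% of sense clusters in PHC1, against 44.9% in RNAPII. With each region cut into 10 equal bins from its 5′ end, bins 2 to 4 held 32.0% and 33.0% in PHC1, against 24.6% in RNAPII, and bins 7 to 10 held 37.5% and 36.6%, against 46.0%. Bin 1 was nearly level, at 11.8% and 11.5% in PHC1 against 11.2% in RNAPII. It joins the start, where RNAPII was denser, with the stretch behind it, where PHC1 was. Bin 10 held 10.4% and 9.83% in PHC1, against 14.1% in RNAPII.

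**Figure D2:**
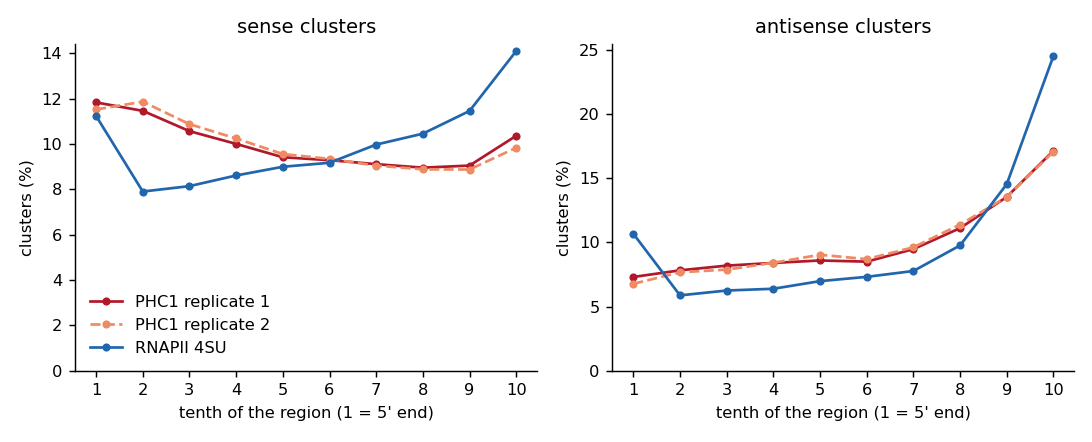
Share of clusters (%, vertical axes from 0) in each of 10 equal bins of the region from its 5′ end, on the sense strand (left) and antisense strand (right), for PHC1 replicates 1 and 2 and RNAPII 4SU. Sense clusters of PHC1 decline from 11.5% and 11.9% in bin 2 to 8.95% and 8.88% in bin 8 before a small rise in bin 10, while those of RNAPII climb from 7.90% in bin 2 to 14.1% in bin 10.

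The mean relative position was compared per region for 4913 regions with 10 or more sense clusters in every library, where the sense strand was the one that held at least 80% of the region's clusters. The median over regions was 0.499 and 0.497 in PHC1, against 0.535 in RNAPII. By limma with Benjamini-Hochberg adjustment over all regions tested, 1063 regions passed (21.6%). Of these, 845 regions (17.2%) lay nearer the 5′ end in PHC1 and 218 (4.44%) nearer the 3′ end at an adjusted p under 0.05. Both PHC1 libraries lay on the 5′ side of RNAPII in 2811 regions (57.2%) and on the 3′ side in 1425 (29.0%). The median difference was −0.04. As in all limma tests here, the spread was that of 2 PHC1 libraries, and the lone RNAPII library was assumed to vary like them. The p-values measure the spread between these libraries only, which may be technical.

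The difference varied with region length, here in 5 classes of 982 or 983 regions. In the shortest class, with a median length of 11.5 kb, the median position was 0.535 and 0.544 in PHC1, against 0.513 in RNAPII. In the longest class, with a median length of 184 kb, it was 0.425 and 0.416 in PHC1, against 0.534 in RNAPII. The median difference was 0.03 in the shortest class, −0.01, −0.03 and −0.07 in the next 3, and −0.10 in the longest. The share called nearer the 5′ end was 3.87% in the shortest class and 37.3% in the longest, and the share called nearer the 3′ end was 11.1% and 0.509%. Across the 4913 regions the difference had a Spearman correlation of −0.45 with length. This is a description across regions, which share the libraries and are not independent. RNAPII itself stayed between 0.513 and 0.552 over the 5 classes, so it was the PHC1 position that moved with length.

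**Figure D3:**
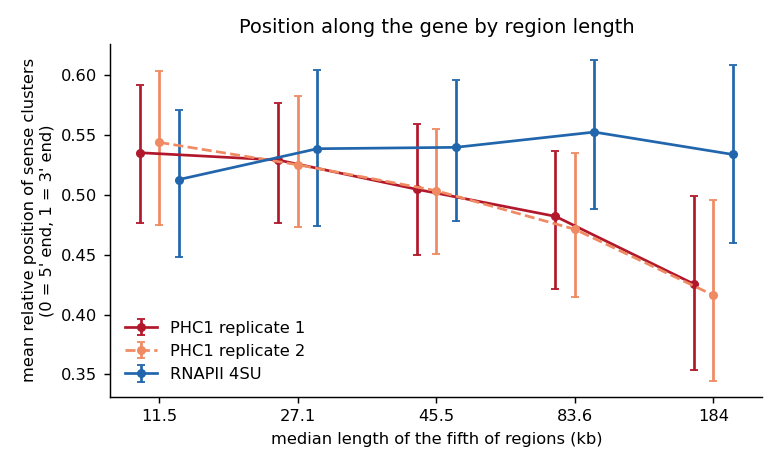
Mean relative position of sense clusters in a region (vertical axis, 0 at the 5′ end and 1 at the 3′ end) by class of region length (horizontal axis, median length in kb), for PHC1 replicates 1 and 2 and RNAPII 4SU. Points are medians over 982 or 983 regions and bars run from the lower to the upper quartile. The PHC1 medians go down from 0.535 and 0.544 to 0.425 and 0.416 with length, and those of RNAPII do not.

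The regions with the largest shift to the 5′ end included genes of several kinds. MRC2, a collagen-binding endocytic receptor, had positions of 0.168 and 0.188 in PHC1, against 0.702 in RNAPII, a difference of −0.52 ± 0.03 (SE). ANXA4, an annexin that binds membranes in the presence of calcium, had 0.141 and 0.154 in PHC1, against 0.665 in RNAPII. CAMK4, a calcium/calmodulin-dependent kinase, had 0.222 and 0.215 in PHC1, against 0.654 in RNAPII. CRY1, a repressor in the circadian clock, had 0.294 and 0.315 in PHC1, against 0.707 in RNAPII. In these 4 genes the mean PHC1 position lay well before the midpoint and the mean RNAPII position beyond it. The long noncoding RNA gene MIR4435-2HG had a difference of −0.45, with 0.321 and 0.211 in PHC1 against 0.714 in RNAPII. The others of the 10 were ZNF876P, NPIPA5, CUEDC1, ZNF93 and CHN1, with differences between −0.51 and −0.39. The 10 regions run over 14.7 to 287 kb. Several of these positions rest on few clusters: MRC2 had 12 in RNAPII, ANXA4 had 12 and 12 in PHC1, and CUEDC1 had 11 in RNAPII. The SE comes from the spread of the PHC1 libraries and does not reflect how few clusters a position rests on. The limma adjusted p was 0.0237 for each of the 10 except MIR4435-2HG, for which it was 0.0242.

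The shift to the 3′ end was largest in YJU2, a splicing factor, with 0.773 and 0.849 in PHC1 against 0.369 in RNAPII (difference 0.44 ± 0.04, limma adjusted p = 0.0237). NDUFA12, a subunit of respiratory complex I, had 0.634 and 0.604 in PHC1, against 0.261 in RNAPII. ADAT1, a tRNA adenosine deaminase, had 0.632 and 0.757 in PHC1, against 0.375 in RNAPII. SLC25A46, a mitochondrial outer-membrane protein, had 0.639 and 0.661 in PHC1, against 0.341 in RNAPII. KBTBD6, RIMOC1, IRGQ, MDFIC, KIAA1143 and GATAD1 made up the rest, with differences between 0.31 and 0.34 and adjusted p between 0.0237 and 0.0428. These 10 regions had between 10 and 32 clusters in each PHC1 library and between 13 and 26 in RNAPII, so each position rests on few clusters.

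The libraries held similar numbers of clusters. There were 696186 and 698056 clusters in PHC1, against 667937 in RNAPII, and they covered 29.3 and 29.1 Mb in PHC1, against 25.0 Mb in RNAPII. They were spaced differently. The median gap to the next cluster on the strand was 434 and 399 bases in PHC1, against 295 bases in RNAPII. Gaps under 50 bases made up 15.1% and 16.8% in PHC1, against 25.8% in RNAPII. Gaps over 5000 bases made up 14.0% and 13.6% in PHC1, against 11.8% in RNAPII. RNAPII thus had more short gaps and fewer long ones. Clusters inside gene regions made up 53.6% and 53.4% in PHC1, against 56.0% in RNAPII.

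RNAPII clusters were deeper. The coverage of a cluster, its mean number of reads per base, had a median of 14.9 and 15.3 in PHC1, against 19.2 in RNAPII. The upper quartile was 21.9 and 23.6 in PHC1, against 35.1 in RNAPII, and the 95th percentile was 46.1 and 57.6, against 119. Clusters with a coverage above 50 made up 4.12% and 6.52% of PHC1 clusters and 16.2% of RNAPII clusters. Coverage is not scaled to library depth, and total reads per library were not used here. The summed coverage, which is the number of sequenced bases within clusters, was 1134 and 854 Mb in PHC1, against 1132 Mb in RNAPII. Within regions it was 449227911 and 393459118 bases in PHC1, against 605387649 in RNAPII. The deepest 1% of clusters held 46.3% of summed coverage in PHC1 replicate 1 and 25.0% in replicate 2, against 25.6% in RNAPII.

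Width did not separate the proteins as cleanly. The median width was 33 and 38 bases in PHC1, against 34 bases in RNAPII, so RNAPII lay between the PHC1 replicates. The upper tail was longer in both PHC1 libraries. Clusters over 100 bases made up 4.39% and 2.37% in PHC1, against 1.56% in RNAPII, and clusters of 50 to 55 bases made up 11.7% and 14.9%, against 8.06%. Clusters over 1000 bases numbered 147 and 5 in PHC1 and 0 in RNAPII, so that tail was chiefly 1 library's. Per region, no width passed limma at an adjusted p under 0.05 in 5338 regions with 10 or more clusters in every library. At an unadjusted p under 0.05 there were 728, of which 630 were wider in PHC1. Both PHC1 libraries were wider than RNAPII in 2768 regions (51.9%) and narrower in 1329 (24.9%). With the clusters at or above their library's median coverage alone, 179 regions were wider and 16 narrower at an adjusted p under 0.05.

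**Figure D4:**
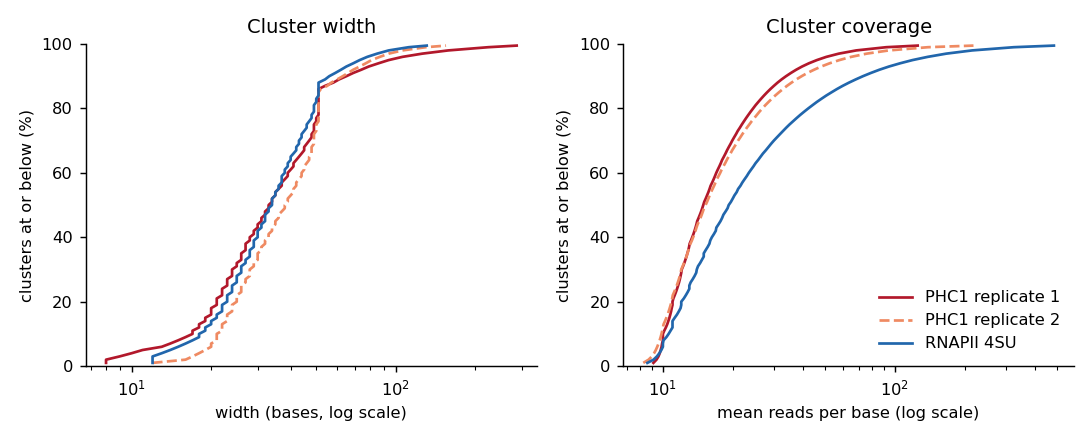
Percent of clusters (vertical axes) at or below a given width (left, bases, log scale) and coverage (right, mean reads per base, log scale) for PHC1 replicates 1 and 2 and RNAPII 4SU, by percentile from the lowest 1% upwards. From the 5th percentile upwards the PHC1 coverage curves lie left of that of RNAPII, with medians of 14.9 and 15.3 against 19.2. The median widths are 33 and 38 bases in PHC1, against 34 in RNAPII.

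Shared positions varied with depth. A cluster was called shared when at least 1 base on the same strand overlapped a cluster of the other library. Deeper clusters were also wider. From the least to the most covered quartile the median width went from 24 to 50 and from 32 to 47 bases in PHC1. In RNAPII it went from 31 to 38 bases. Depth and width were not separated, and the overlap to be had by chance was not estimated. PHC1 replicate 1 clusters met replicate 2 clusters in 37.9% of the least covered quartile and 94.8% of the most covered. They overlapped RNAPII clusters in 23.0% of the least covered quartile and 38.6% of the most covered, and PHC1 replicate 2 clusters did so in 22.4% and 38.0%. By summed coverage in place of number, the most covered quartile of PHC1 overlapped RNAPII in 69.1% and 54.6%. Most PHC1 clusters of high coverage were found again in the other PHC1 library, and those shared with RNAPII were fewer and deeper. From the other side, RNAPII clusters of the most covered quartile met PHC1 replicate 1 in 65.0% and replicate 2 in 57.9%, against 18.8% and 18.4% of its least covered quartile. Over all clusters, PHC1 replicates 1 and 2 shared 28.8% and 27.7% with RNAPII, and RNAPII shared 34.6% and 31.4% with them.

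At least 1 cluster was found in 10901 and 10688 regions in PHC1, against 10591 in RNAPII. All 3 libraries had a cluster in 9367 of the 14432 regions and none had one in 2431. Across regions tested, summed coverage had a Spearman correlation of 0.98 between the PHC1 libraries, and of 0.79 and 0.77 between each of them and RNAPII (n = 8037 regions, a description). The libraries thus mostly ranked genes alike, with wide single differences. Summed coverage per region, scaled with TMM factors to 1000000 bases in regions (parts per 1000000, ppm), was tested with limma on log2 of the value plus 1. Regions entered with 5 ppm in 2 libraries, which PHC1 could supply alone and RNAPII could not. Of 8037 regions tested, 4955 passed (61.7%). At an adjusted p under 0.05, 2707 (33.7%) were higher in PHC1 and 2248 (28.0%) lower. A lower value can mean fewer cells that make the RNA or less bound RNA per cell, which cannot be told apart. With library totals in place of TMM factors the median over regions moved to −0.16, against 0.04, so single folds are best read relative to the median region. No region passed when regions of low coverage were kept in the test, where the smallest adjusted p was 0.0568 and 2782 regions higher and 2370 lower had an unadjusted p under 0.05.

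Among regions tested, the largest folds towards PHC1 lay in genes with little RNA in the nucleus of these cells. Of the 10 furthest towards PHC1, only CATSPERD reached 5 ppm in RNAPII, and the others entered through the 2 PHC1 libraries alone. Their order, their folds and their low RNA are thus in part set by the filter and are given as descriptions. VIL1 (chr2:219283838-219314248 of hg19), the villin that bundles actin in gut microvilli, had a summed coverage of 87.2 and 93.7 ppm in PHC1, against 0.626 in RNAPII. Its log2 fold was 5.81 ± 0.38 (SE), and it had 31 and 29 clusters in PHC1 against 1 in RNAPII. CCL5, a chemokine of T cells, had 199.6 and 196 ppm in PHC1, against 4.53 in RNAPII (log2 fold 5.17). CATSPERD, a subunit of the calcium channel of sperm, had 278 and 306 ppm in PHC1, against 7.95 in RNAPII (log2 fold 5.03). MAP3K19, a protein kinase, had 80.8 and 96.1 ppm in PHC1, against 0.801 in RNAPII (log2 fold 5.63). The PHC1 libraries lay close together and far from RNAPII in each. SPMAP1 and SPMIP3, both proteins of sperm microtubules, had log2 folds of 5.30 and 5.07. For GAL3ST1, CMKLR2, NMRK2 and ACOX2, RNAPII is listed at 0, and no fold is given.

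GAL3ST1 (chr22:30950624-30968817 of hg19), which makes the sulfatide lipid of myelin and kidney, had 66 and 64 clusters and 254 and 276 ppm in PHC1, against 0 clusters in RNAPII. It was 1 of 10 regions with 10 or more clusters in both PHC1 libraries and 0 in RNAPII. The others included CMKLR2 (32 and 30 clusters, a chemerin receptor), TERB1 (24 and 22, a meiotic telomere protein), ACOX2 (17 and 17, a peroxisomal oxidase), OPRD1 (16 and 14, the delta opioid receptor), NMRK2 (16 and 16, a kinase of nicotinamide riboside), CELA1 (15 and 14, an elastase), GRM7 (13 and 13, a glutamate receptor) and IDNK (12 and 12, a gluconokinase). In the opposite direction, 11 regions had 10 or more RNAPII clusters and none in PHC1. The nuclear RNA of the 10 genes named for their summed coverage was between 0.127 and 2.78 CPM, while IDNK had 12.1 and 13.0 CPM. Those RNA libraries and the RNAPII library came from cells without the transgene, so an RNA made in the PHC1 line alone and a difference in what the proteins bind cannot be told apart. Summed coverage and cluster number also count both strands of a region. In several of these regions most PHC1 clusters lay opposite to the gene, as given below, and are not RNA of that gene. Which transcript they belong to was not tested.

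**Figure D5:**
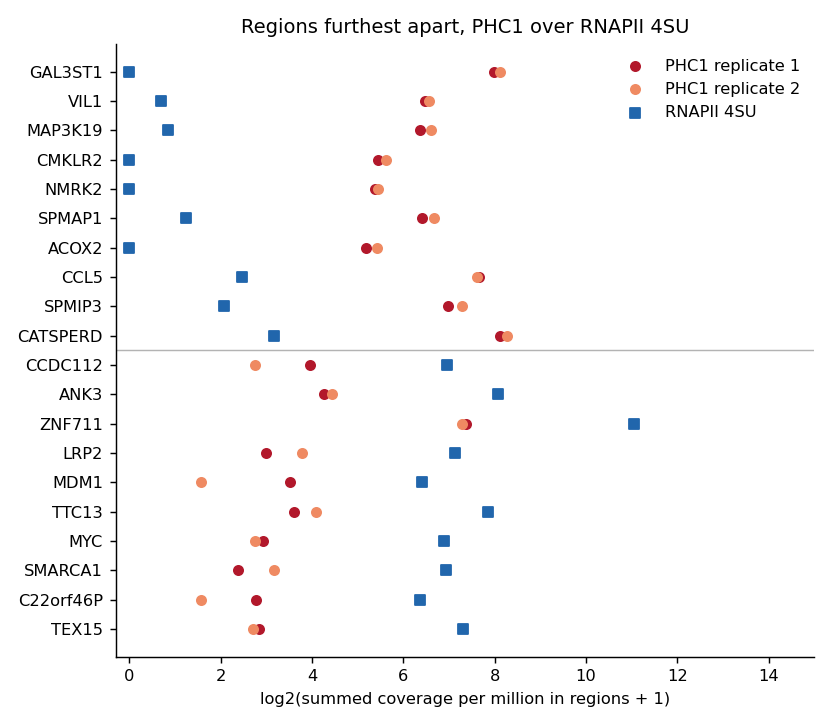
Summed coverage on the scale log2(ppm in regions + 1) for the 10 regions furthest towards PHC1 (above the line) and the 10 furthest towards RNAPII (below it), with 1 point per library. In each of the 20 regions the 2 PHC1 points lie closer to each other than either lies to the RNAPII point.

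Several of the genes highest in PHC1 were read on the strand opposite to the annotated gene. Of the 7 with an annotated strand, 5 had most of their clusters antisense in both PHC1 libraries. All of the 7 but CATSPERD had entered the test through PHC1 alone, so this count is a description. In MAP3K19, which lies on the minus strand, 54 of 55 and 56 of 57 PHC1 clusters were on the plus strand. In NMRK2, on the plus strand, 0 of 16 clusters of either PHC1 library were on it. SPMIP3, also on the plus strand, had 1 of 67 and 2 of 61 on it. CMKLR2 and CATSPERD were the other 2 of the 5. GAL3ST1 and SPMAP1, both on the minus strand, were the exceptions, and GAL3ST1 had 1 of 66 and 1 of 64 clusters on the plus strand. Among all regions higher in PHC1 with an annotated strand and 10 or more clusters in both PHC1 libraries, 145 of 1648 (8.80%) were mostly antisense, against 4.58% of all tested regions with that many PHC1 clusters. Of the regions lower in PHC1, 23 of 1799 (1.28%) were mostly antisense in RNAPII, against 2.53% of all tested. With clusters of the annotated strand alone, 2063 regions were higher in PHC1 and 1690 lower, of 6205 tested, an alternative added after the data were seen.

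Among regions tested, the largest folds towards RNAPII lay in genes with more nuclear RNA, between 12.1 and 2289 CPM. ZNF711 (chrX:84498997-84528368 of hg19), a zinc finger factor of the X chromosome, had 165 and 154 ppm in PHC1, against 2124 in RNAPII (log2 fold −3.73 ± 0.17, limma adjusted p = 2.13e-20). MYC, the transcription factor of cell growth, had 6.63 and 5.77 ppm in PHC1, against 117 in RNAPII (log2 fold −4.04). SMARCA1, an ATPase of ISWI remodelling complexes, had 4.23 and 8.02 ppm in PHC1, against 122 in RNAPII (log2 fold −4.16). ANK3, the ankyrin of axon initial segments, had 18.1 and 20.6 ppm in PHC1, against 266 in RNAPII (log2 fold −3.72). LRP2, the megalin receptor of kidney tubules, had 6.91 and 12.6 ppm in PHC1, against 138 in RNAPII (log2 fold −3.75). RNAPII stood above both PHC1 libraries in each, and none of these genes was without RNA. TEX15, C22orf46P, TTC13 and CCDC112 had log2 folds of −4.53, −4.19, −4.00 and −3.60. MDM1, a centriole protein, had 10.4 ppm in replicate 1 and 1.95 in replicate 2 of PHC1, against 83.4 in RNAPII. Its adjusted p of 0.029 became 0.0668 with a pseudocount of 0.5.

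Nuclear RNA ordered these folds mainly at its low end. Of 5 classes of tested regions by nuclear RNA, the lowest had a median of 4.82 CPM. There the median log2 fold was 1.44, and 58.6% of regions were higher in PHC1 and 8.33% lower. Since PHC1 alone could admit a region, the lean towards PHC1 among regions of low RNA is in part set by that filter and is given as a description. In the other 4 classes the median lay between −0.20 and −0.11, with 24.8% to 28.9% higher and 28.6% to 36.8% lower. Regions of lncRNA genes had a median of 0.67, with 44.7% of 170 higher and 16.5% lower. The same filter applies to them.

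Cluster number per region gave a check that single deep clusters cannot move. Of 6062 regions with 10 or more clusters in at least 2 libraries, 2985 passed (49.2%), of which 1919 (31.7%) had more in PHC1 and 1066 (17.6%) fewer by limma at an adjusted p under 0.05. The filter let regions in through the 2 PHC1 libraries alone but not through RNAPII alone, so this balance leans to PHC1 by construction. Without a filter the median log2 fold was 0.04, against 0.14. Among regions tested, those with the lowest folds ran over 35.8 to 707 kb. ITPR2, a calcium channel of the endoplasmic reticulum, had 14 and 10 clusters in PHC1, against 147 in RNAPII (log2 fold −3.37 ± 0.26, adjusted p = 2.48e-35). LAMA3, a laminin chain of basement membranes, had 24 and 18 in PHC1, against 142 in RNAPII (log2 fold −2.52). ANK3 had 13 and 10 in PHC1, against 87 in RNAPII, and TTC13 had 13 and 14, against 92. HIVEP3, ARHGAP29, CEP78, EEF1AKMT1 and COL14A1 had log2 folds between −2.52 and −2.43, with 6 to 15 clusters in PHC1 against 51 to 81 in RNAPII. The region with Entrez number 619343 had 4 and 15, against 56. MAP3K19 had 55 and 57 clusters in PHC1, against 1 in RNAPII. It and the regions listed at 0 in RNAPII entered through PHC1, and the 11 regions of the opposite kind could not enter, so no ranking is drawn from them.

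These calls rested on the scaling and the tool. With library totals in place of TMM factors no region passed (1369 more and 1241 fewer at an unadjusted p under 0.05), and none did with every region kept in. edgeR's quasi-likelihood test called 1299 and 1185 regions on the same numbers, and DESeq2 called 225 and 59, with no adjusted p for 2586 regions.

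The depth of clusters within a gene was compared as mean coverage per covered base in 5338 regions. Its median over regions was 21.02 and 20.5 in PHC1, against 32.9 in RNAPII. On the deposited scale, 3748 regions were lower in PHC1 and 188 higher, with a median log2 fold of −0.68. To compare genes apart from that general difference, each library was centred on its own median, and then 2760 regions passed (51.7%), of which 1322 (24.8%) were higher in PHC1 and 1438 (26.9%) lower. Folds in the rest of this paragraph are relative to that median. IRS4, an insulin receptor substrate abundant in HEK293 cells, had a mean coverage of 35.6 and 35.2 in PHC1, against 321 in RNAPII (log2 fold −2.52 ± 0.26, limma adjusted p = 0.000553). CENPF, a kinetochore protein, had 39.1 and 34.3 in PHC1, against 209 in RNAPII (log2 fold −1.85). RBM25, a splicing regulator, had 31.6 and 24.5 in PHC1, against 152 in RNAPII (log2 fold −1.78). UPF3B, a factor of nonsense-mediated decay, had 28.7 and 21.2 in PHC1, against 133 in RNAPII (log2 fold −1.76). ZNF711, RNASEH2A, PPP1R15A, SLK, SRSF7 and IFRD1 completed the 10 with log2 folds between −2.48 and −1.64. The RNAPII values of all 10 were 106 reads per base or more, and none of their PHC1 values exceeded 39.1.

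Towards PHC1, BBS9, a protein of the BBSome of cilia, had a mean coverage of 164 and 119 in PHC1, against 22.7 in RNAPII (log2 fold 3.29 ± 0.30, limma adjusted p = 0.000544). AKAP6, an anchor of protein kinase A, had 65.0 and 79.2 in PHC1, against 25.1 in RNAPII (log2 fold 2.18). ARHGEF10L, a guanine nucleotide exchange factor, had 53.5 and 41.1 in PHC1, against 13.7 in RNAPII (log2 fold 2.44). GSTO1, a glutathione transferase, had 69.7 and 67.0 in PHC1, against 29.7 in RNAPII (log2 fold 1.87). In FAM234B and RNMT the PHC1 libraries disagreed, with 1890.1 and 824 in FAM234B against 108 in RNAPII, and 1169 and 218 in RNMT against 47.6. Both were above the threshold without centring, at adjusted p of 0.0817 and 0.0614. ZNF891, KIAA0825, GNPDA2 and JRK had log2 folds between 1.90 and 3.11. By 5 classes of nuclear RNA the median log2 fold in mean coverage was 0.29 in the lowest and −0.28 in the highest.

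Of the gene lists with 10 or more regions compared for depth, that of SR and hnRNP proteins, which bind pre-mRNA and steer its splicing, had the highest share called lower. Of its 20 genes tested, 15 had a lower mean coverage in PHC1 and 0 a higher one, beside 26.9% and 24.8% of all regions. The median log2 fold was −0.74, against −0.01 over all regions tested. In the class of regions with the most nuclear RNA, 41.8% were lower and 11.6% higher. The list was not compared with regions of like RNA. HNRNPH1 had a mean coverage of 53.1 and 52.4 in PHC1, against 245 in RNAPII. HNRNPU had 74.8 and 66.0 in PHC1, against 306 in RNAPII. SRSF7 had 28.7 and 25.5 in PHC1, against 137 in RNAPII, and HNRNPA2B1 had 46.8 and 40.4, against 194. In summed coverage 12 of the 20 were lower in PHC1 and 2 higher, beside 28.0% and 33.7% of all regions, with a median of −0.69 against 0.04. HNRNPF was higher, with 341 and 355 ppm in PHC1 against 140.4 in RNAPII (log2 fold 1.30), and so was HNRNPC, with 1131 and 1051 against 467 (log2 fold 1.22). In cluster number, 5 of the 20 were higher and 4 lower, beside 31.7% and 17.6% of all regions. These shares lie near those of all regions, so the lean of the list was seen in sum and depth and not in cluster number.

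Genes of cytoplasmic ribosomal proteins, which are short and strongly transcribed, were also mostly lower. In summed coverage 23 of 39 were lower in PHC1 and 6 higher, beside 28.0% and 33.7% of all regions, with a median log2 fold of −0.85 against 0.04. RPS6 had 81.3 and 65.1 ppm in PHC1, against 281 in RNAPII (log2 fold −1.93). RPL7 had 6.59 and 4.00 ppm in PHC1, against 45.8 in RNAPII (log2 fold −2.92). RPL34 was the largest exception, with 127 and 153 ppm in PHC1 against 24.9 in RNAPII (log2 fold 2.44), followed by RPS15A at 254 and 191 against 93.0. Short regions as a whole were lower in PHC1. The shortest quartile of regions with an annotated strand, of a median 4.58 kb, had 0.718 and 0.648 sense clusters per kb in PHC1, against 1.15 in RNAPII, while the longest quartile had 0.319 and 0.324, against 0.310. Reads of ribosomal protein genes may be shared with their processed pseudogenes, and how the authors placed such reads is not given in the sources used here.

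Genes of PRC1 itself showed no common direction. In summed coverage, 7 of 15 tested were higher in PHC1 and 3 lower, with a median log2 fold of −0.11. PCGF6, a subunit of a variant PRC1, had 742 and 880 ppm in PHC1, against 141 in RNAPII (log2 fold 2.51 ± 0.17, limma adjusted p = 1.63e-15). AUTS2, of another variant complex, had 1531 and 1680 ppm in PHC1, against 630.4 in RNAPII (log2 fold 1.35). SCML1, a protein related to the Polycomb factor Scm of flies, had 107 and 102 ppm in PHC1, against 341 in RNAPII (log2 fold −1.70). BCOR, a corepressor of a variant PRC1, had 142 and 113 ppm in PHC1, against 331 in RNAPII (log2 fold −1.38). The gene of PHC1 itself was not analysed here. PHC3 was higher, at 331 and 365 ppm in PHC1 against 225 in RNAPII (log2 fold 0.63). That call was lost with library totals in place of TMM factors (log2 fold 0.41).

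PRC2, which places the methyl mark H3K27me3, was as divided, with 4 of 9 genes higher in PHC1 and 3 lower. SUZ12 had 1824 and 2059 ppm in PHC1, against 575 in RNAPII (log2 fold 1.75), and AEBP2 had 476 and 435, against 147 (log2 fold 1.62). EZH1, the second methyltransferase, had 40.8 and 32.1 ppm in PHC1, against 110.5 in RNAPII (log2 fold −1.58). EZH2, the main one, had 1068 and 1064 ppm in PHC1, against 721 in RNAPII (log2 fold 0.56). With library totals the higher calls of EZH2 (log2 fold 0.35) and JARID2 (log2 fold 0.24) were lost. The lower call of EED was lost with clusters at or above their library's median coverage and on the annotated strand alone. For both complexes the share higher lay above the 33.7% of all regions. The share lower lay below the 28.0% of all regions for PRC1 and above it for PRC2. In cluster number 6 of 14 PRC1 genes and 5 of 9 PRC2 genes were higher, and 3 and 2 lower. Over all regions 31.7% were higher and 17.6% lower in cluster number. The lists are small, and nothing particular to the complexes is drawn from them.

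Among factors of pausing and elongation, 6 of 20 were higher in PHC1 and 9 lower, beside 33.7% and 28.0% of all regions. TCEA1, which rescues stalled polymerase, had 411 and 457 ppm in PHC1, against 77.5 in RNAPII (log2 fold 2.47). NELFCD, of the pausing complex NELF, had 65.5 and 59.6 ppm in PHC1, against 264 in RNAPII (log2 fold −2.06). The PAF complex genes PAF1, CTR9 and LEO1 had log2 folds of −1.78, −1.84 and −1.23. HEXIM1, which holds the kinase P-TEFb inactive, had 24.7 and 13.2 ppm in PHC1, against 68.0 in RNAPII (log2 fold −1.85). Of 11 genes of cleavage and termination, 4 were higher and 5 lower, the first a share near that of all regions. WDR33, of the complex that reads the polyadenylation signal, had 1134 and 1240.2 ppm in PHC1, against 332 in RNAPII (log2 fold 1.83). CSTF2 and PCF11 had log2 folds of −2.08 and −1.78. None of 6 RNAPII subunit genes passed by limma at an adjusted p under 0.05, beside 61.7% of all regions called in either direction. The list is small, and nothing is drawn from this count. POLR2A had 399 and 304 ppm in PHC1, against 369.9 in RNAPII.

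Of 12 heat shock genes 1 was higher in PHC1 and 5 lower, beside 33.7% and 28.0% of all regions. HSPH1 had 30.8 and 17.8 ppm in PHC1, against 124 in RNAPII (log2 fold −2.36), HSPA8 had 188 and 106, against 498, and DNAJB4 was higher at 105 and 119.7, against 40.4. Of 11 immediate early genes BTG2 alone was higher, a share below the 33.7% of all regions. MYC, IER2 and IER5 were lower, a share near the 28.0% of all regions. Of 3 replication histone genes H2BC5 and H2BC21 were lower, and SNHG10, the 1 snoRNA host gene tested, was lower with a log2 fold of −0.97. The calls of IER2 and SNHG10 were lost with clusters at or above their library's median coverage and on the annotated strand alone. Among nuclear long noncoding RNAs, OIP5-AS1 had 335 and 359 ppm in PHC1, against 70.6 in RNAPII (log2 fold 2.28). TUG1 was lower, with a log2 fold of −0.63. In summed coverage, MALAT1 had 3283 and 1875 ppm in PHC1, against 7038 in RNAPII, and did not pass (limma adjusted p = 0.286). It passed with library totals (log2 fold −1.72, limma adjusted p = 4.1e-06) and on the annotated strand alone (log2 fold −1.33, adjusted p = 1.78e-05), and over all alternatives with a test the adjusted p ran up to 0.314. It had 4 clusters in PHC1 replicate 1 and 55 in replicate 2, against 98 in RNAPII. NEAT1 had a summed coverage of 452 and 376 ppm in PHC1, against 434 in RNAPII. Of the cell markers tested, NEFL was lower in PHC1 with 6 and 3 clusters against 17, and ALB, with 1 cluster in each library, was called higher.

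Antisense clusters within regions were more common in PHC1. On regions with an annotated strand they made up 7.19% and 6.95% of clusters in PHC1, against 4.47% in RNAPII, and 9.83% and 7.63% of summed coverage, against 3.68%. In 3835 regions with 20 or more clusters in every library, the strand was the annotated one or, where none was known, the one with at least 80% of clusters. The median antisense share was 2.22% and 2.19% in PHC1, against 0% in RNAPII. Both PHC1 libraries had a higher share than RNAPII in 1876 regions (48.9%) and a lower one in 631 (16.5%). Their place differed as well. The first kb held 1.98% and 1.48% of antisense clusters in PHC1, against 7.69% in RNAPII, and bin 10 of the region held 17.1% and 17.0% in PHC1, against 24.5% in RNAPII. Bin 1 held 7.30% and 6.77% in PHC1, against 10.7% in RNAPII. Antisense clusters of all 3 libraries were densest at the 3′ end, and RNAPII held a larger share of them at both ends. In limma 293 regions passed (7.64%), of which 79 regions (2.06%) had a higher share in PHC1 and 214 (5.58%) a lower one at an adjusted p under 0.05. All 293 had PHC1 libraries within 1 percentage point of each other and 190 had 0 in both, so the calls followed ties between replicates, and no gene is named from them.

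By chromosome the libraries were close. Chromosome 19, rich in zinc finger genes, held 6.31% and 6.43% of PHC1 clusters, against 5.50% of RNAPII clusters, and chromosome 2 held 5.58% and 5.54%, against 6.11%. The plus strand held 53.69% and 53.68% of PHC1 clusters, against 52.19% of RNAPII clusters. The mitochondrial genome had 46 and 1152 clusters in PHC1, against 190 in RNAPII, so on it the replicates differed more than the proteins.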

How the data were processed

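2 PHC1 and 1 RNAPII PAR-CLIP libraries of HEK293T T-REx cells were compared. Per the submitters' processing notes the authors aligned reads to hg19 with Bowtie 0.12.7, used SAMtools 0.1.19, and then R 3.2.2 (PHC1) or R 3.1.0 (RNAPII). The cluster caller, its conversion filter, the handling of duplicates and the total reads are not given in the sources used here. The deposited cluster tables give a signal for each cluster, the mean read coverage per base, not scaled to depth. Coverage multiplied by width gave whole numbers throughout (100% of clusters, tolerance 1e-06). Gene regions came from the deposited promoter table, whose promoter score, made by the authors, was not used. The deposited nuclear RNA table holds the authors' read counts per gene, 47187882 and 49626658 in total, made with TopHat2 2.0.11 per the submitters' notes. A further 1 value column of it was not mapped to a sample and not used.

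Symbols matched for 14378 regions by Entrez number, and strand and promoters for 10969 from RefSeq tables of GRCh38.p14, which were not used for positions. Positions are those of hg19. The strand used in the position test was that of at least 80% of a region's clusters, which equalled RefSeq's in 4062 of 4136 regions with 10 or more clusters in every library. Main tests were limma 3.58.1 with TMM factors of edgeR 4.0.16 and a pseudocount of 1, after keeping regions with 5 or more ppm of summed coverage or 10 or more clusters in at least 2 libraries. Alternatives were tried with edgeR and DESeq2 1.42.0 on cluster numbers, in R 4.3.3, with Python 3.11.15, pandas 2.3.3, numpy 2.4.6 and matplotlib 3.10.9. The tests were also run on simulated data in which every library varied like the PHC1 pair. Such a run cannot check whether the lone RNAPII library varies like them. No promoter of chromosome 8 was printed.

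Named regions were the 10 highest and 10 lowest past the threshold with both PHC1 libraries on 1 side of RNAPII and 10 or more clusters in each library of the higher group, and in each list up to 4 members with large folds. Others were named for their role and chosen after their values were seen. Members, regions and lists were chosen with earlier results of these data known. Precision is limited by 2 libraries against 1, and no counting interval is given, because reads are not independent molecules here. Some results are not reported here.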

Additional observations from a re-analysis of the deposited data

How the results depend on the processing

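No paired analysis was possible because the PHC1 and RNAPII libraries share 1 replicate number. No region overlaps another, so giving a cluster to every region that holds it, or keeping regions that overlap no other, changed nothing by construction. The cause of each change below was not tested. With library totals in place of TMM factors, the median log2 fold was −0.162 for summed coverage, against 0.0415, and −0.0846 for cluster number, against 0.137. For cluster number it was −0.0197 in edgeR and −0.0146 in DESeq2. With totals 2142 regions were higher and 2525 lower in summed coverage. Without a filter 0 higher and 0 lower passed in both measures, and with totals 0 and 0 in cluster number. DESeq2 called 225 higher and 59 lower. Regions with fewer clusters numbered 260 with 4 times the filter, 610 with clusters at or above their library's median coverage and 707 on the annotated strand alone. With those upper clusters, mean coverage was higher in 777 regions and lower in 826 (median 0.00652, against −0.0134), width in 179 and 16, and antisense share in 40 and 91. Mean coverage was higher in 188 and lower in 3748 regions without centring. The antisense share was lower in 341 with 10 or more clusters. In the upper clusters the PHC1 mean minus RNAPII was 8 bases in median width, −12.4 in coverage, −4.86 percentage points in regions, 3.97 points antisense and 345 bases in gap, and 1064 regions had fewer antisense clusters upstream in both PHC1 libraries. A 500-base window left 4213 and 1893 regions with fewer clusters at the start and upstream.

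With each PHC1 library left out in turn, values without a test ranged from 0.0424 to 0.0633 (summed coverage), from 0.132 to 0.152 (cluster number), from −0.0182 to −0.00659 (mean coverage), from 0.0622 to 0.123 (width), from −0.0365 to −0.0359 (position) and from 0.00787 to 0.00933 (antisense share) as medians over regions. The PHC1 minus RNAPII difference ranged from −1 to 4 bases in median width, from −4.29 to −3.95 in coverage, from −2.67 to −2.45 percentage points in regions, from 2.48 to 2.72 points antisense and from 104 to 139 bases in gap. Of the values of single named regions, list members and medians over the alternatives, 2625 were counted as unchanged, 201 lost a call and 22 gained one. A further 18 values without a test moved beyond the spread of the PHC1 libraries. The unchanged include values that changed sign with no call in either setting. They also include, by construction, every single-region value with a PHC1 library left out, so their number does not measure stability. The 5 counted as reversed are the medians given above. RNAPII had 1 library, so its spread is unknown.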
